A study of Saccharomyces cerevisiae with 8 samples.

Results

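The transcript response of budding yeast to an active dihydropyrimidine-thione (DHPM-thione) at 20 µM was measured against its solvent, DMSO. The active thione libraries and the DMSO libraries, 4 of the 8 libraries of the series, were taken by their labels, 2 in each group. The active thione group is Saccharomyces cerevisiae W303 lacking PDR1 and PDR3, given 20 µM of the compound 10{3,3,1} for about 6 h. The DMSO group is the same strain given solvent for the same time. A further 2 libraries had compound 11 at 20 µM for 6 h, a thione which the labels call inactive, and are set beside both groups. The last 2 had the metal-binding drug clioquinol (CQ) at 0.8 µM, and entered the fit to estimate the spread. All 8 cultures therefore lacked Pdr1 and Pdr3, sister transcription factors that drive genes of drug efflux, and all grew in galactose medium at 30 °C in log phase. Response to the thione in cells that keep Pdr1 and Pdr3 was not measured, and the result is that of a single strain. The growth protocol calls the yeast wild-type and gives doses in millimolar, while the strain label, the sample characteristics and the series design give the deletions and micromolar doses, which are used here.

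Yeast adjusts its uptake of nutrients through dedicated transcription factors, several of which appear below. When phosphate is scarce, the inhibitor Pho81 stops the cyclin-dependent kinase Pho80-Pho85, and the factor Pho4 then stays in the nucleus, where with Pho2 it switches on phosphate transporters and secreted phosphatases. Aft1 and Aft2 switch on iron uptake when iron runs short, Mac1 does so for copper, and Zap1 for zinc. Calcium entering the cytosol activates the phosphatase calcineurin, which sends the factor Crz1 into the nucleus. Gcn4 controls amino acid synthesis, and Ino2 with Ino4 controls inositol and phospholipid synthesis.

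Libraries held 12076141 and 14437085 counts with the active thione, 14187145 and 13404005 with the inactive thione, and 19021672 and 12839597 with DMSO, and 6046 to 6136 features were detected in each library of the series. A count of 0 allows up to 3 counts, or 0.158 to 0.248 CPM (counts relative to TMM-scaled library totals), for counting error only. PDR1 and PDR3 had 0 counts in all 8 libraries. The series' design text calls the libraries of a group biological replicates, and beyond that nothing says how separately they were grown. Replicates differed by more than sampling noise, with a chi-square per degree of freedom of 54.1 for the active thione pair and 22.8 for the DMSO pair. On the second principal component of log2 CPM, which held 17.1% of the variance, the active thione libraries lay at 2.33 and -14.4, the inactive thione libraries at -2.06 and -19.3, and the DMSO libraries at 22.9 and 11.1. With 2 libraries against 2, an exact permutation test of a single gene cannot go below p = 0.333, so the tests use a spread estimated across all 5696 features tested with edgeR's quasi-likelihood test.

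With the active thione 78 of 5696 features changed (1.37%) at a Benjamini-Hochberg adjusted p below 0.05. Of these 63 were higher (1.11%) and 15 were lower (0.263%) than with DMSO, and 42 rose and 8 fell at least 2-fold. Among features with an average log2 CPM of at least 3, the phosphate genes PHO89 and PHO5 rose most, and rises also came in genes of iron and copper uptake, targets of Crz1, inositol synthesis, histidine and arginine synthesis and the cell wall. DAN1, below that mark with an average of 2.09, had a log2 fold change of 3.15. Falls were fewer and included the glutathione and peptide transporter gene OPT1, the aromatic amino acid genes ARO9 and ARO10, and the cell-surface genes WSC4 and SAG1. In all 78 features both active thione libraries lay beyond both DMSO libraries, which was also so for 29.8% of all features in the higher and 23.3% in the lower direction. The median log2 fold change of all features was 0.03. RNA came from whole cultures, so a change in every cell and a larger change in some cells cannot be told apart, and a fold change is relative to the other transcripts of the library. For a cause not tested, the count of 78 changed when a single library was left out, also one outside the comparison. It fell in most cases and rose only where a CQ library was left out. It was 4 without DMSO replicate 1, 9 without DMSO replicate 2, 27 without active thione replicate 1, 7 without active thione replicate 2, and 45 and 43 without inactive thione replicates 1 and 2. No log2 fold change of the 78 changed sign when a library was left out. As both active thione libraries of each lay beyond both DMSO libraries, that outcome was built in and tests nothing. PHO89, PHO5, GIT1 and SPL2 were called whichever single library was left out.

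**Figure D1:**
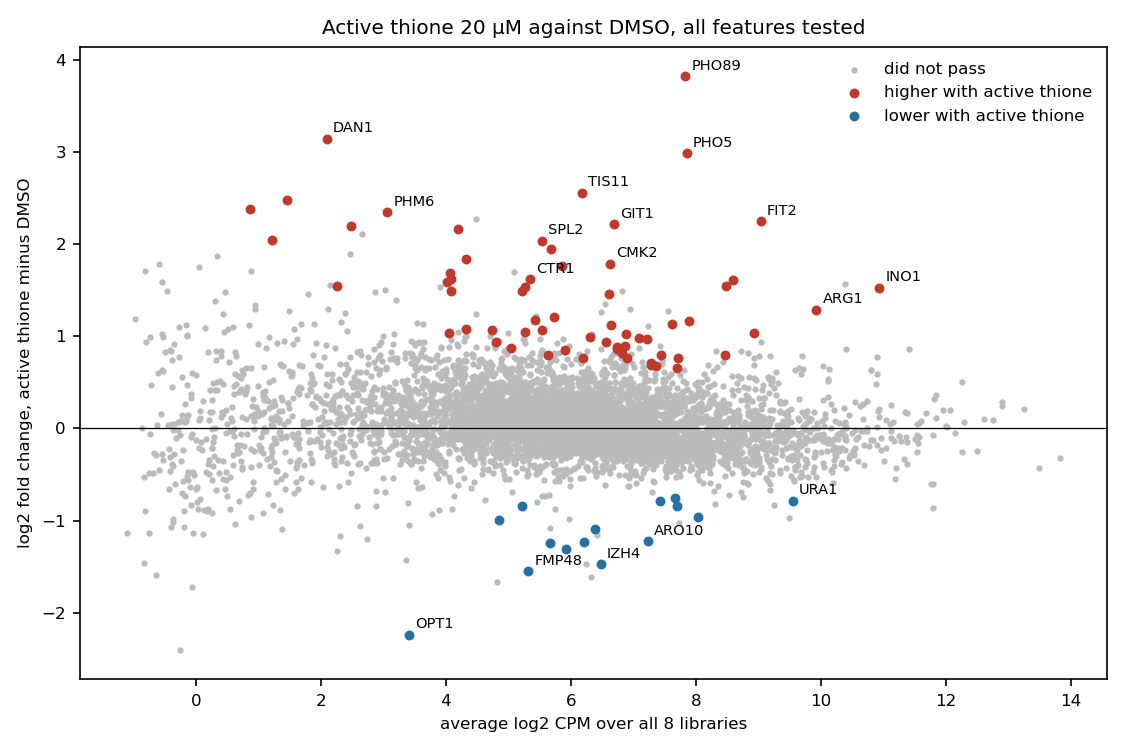
Log2 fold change, active thione minus DMSO, against average log2 CPM over all 8 libraries, with 1 point for each of the 5696 features tested. Red points are the 63 features that were higher with the active thione and blue points the 15 that were lower at adjusted p below 0.05; PHO89 and PHO5 lie far above the other features of similar abundance.

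Phosphate genes were examined in 3 lists, for uptake and its regulation, for phosphatases and for polyphosphate, with 34 members, all tested. Of the 34, 9 rose and 0 fell, against 1.11% and 0.263% of all features. In the uptake list 4 of 14 rose with a list median log2 fold change of 0.21, in the phosphatase list 4 of 8 with a median of 0.75, and in the polyphosphate list 1 of 12 with a median of 0.43, against 0.03 over all features. PHO89, the sodium-phosphate cotransporter gene (chromosome II, 796798 to 798522), had 678 and 566 CPM in the active thione libraries and 47.6 and 39.7 CPM in the DMSO libraries. That is a 14.2-fold higher level (log2 fold change 3.83 ± 0.20 (SE), edgeR adjusted p = 4.53e-05), and the groups lie far apart. GIT1, which encodes the permease for glycerophosphoinositol, a phosphate source of phospholipid breakdown, had 191 and 224 CPM with the active thione and 43.8 and 45.1 CPM with DMSO. Its log2 fold change was 2.22 ± 0.16 (SE), with edgeR adjusted p = 0.000191. SPL2, whose small protein curbs low-affinity phosphate uptake, had 88 and 101 CPM with the active thione and 22.5 and 23.5 CPM with DMSO, 4.11-fold higher (log2 fold change 2.04 ± 0.18 (SE), edgeR adjusted p = 0.00121). In GIT1 and SPL2 the DMSO libraries were nearly equal, and both active thione libraries were over 3 times as high. GDE1, for the phosphodiesterase that splits glycerophosphocholine inside the cell, had 137 and 121 CPM with the active thione against 66.6 and 68.2 CPM with DMSO and rose by 0.93 ± 0.13 on the log2 scale (SE, edgeR adjusted p = 0.014). The inactive thione against DMSO also raised PHO89, GIT1 and SPL2, by 1.62, 1.72 and 1.27 on the log2 scale (edgeR adjusted p = 0.0127, 0.0024 and 0.0347). For PHO5 and GDE1 its log2 fold changes of 1.13 and 0.55 did not pass (edgeR adjusted p = 0.083 and 0.252).

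Among the phosphatases, PHO5 encodes the main secreted acid phosphatase that is repressed by phosphate. PHO5 (chromosome II, 429548 to 430951) had 649 and 632 CPM in the active thione libraries and 89.1 and 71.8 CPM in the DMSO libraries, 7.95-fold higher (log2 fold change 2.99 ± 0.21 (SE), edgeR adjusted p = 0.000191). Of its close relatives, PHO11 had 7.79 and 6.34 CPM with the active thione against 1.78 and 0.625 CPM with DMSO and PHO12 12.1 and 13.8 CPM with the active thione against 3.56 and 1.95 CPM with DMSO. Both rose, PHO11 by 2.48 ± 0.47 and PHO12 by 2.20 ± 0.33 on the log2 scale (SE, edgeR adjusted p = 0.0399 and 0.0156). PHO3, PHO5, PHO11 and PHO12 are similar in sequence, and the counting may have split or dropped reads that fit more than a single copy, so the individual levels of these genes, above all of PHO11 and PHO12, are uncertain. PHO8, for the vacuolar alkaline phosphatase, had 179.6 and 173 CPM with the active thione and 95.5 and 94.5 CPM with DMSO, a rise of 0.89 ± 0.14 on the log2 scale (SE, edgeR adjusted p = 0.0164). PHO3, an acid phosphatase gene controlled by thiamine and not by phosphate, had 113 and 116 CPM with the active thione and 160.3 and 136 CPM with DMSO and did not pass (log2 fold change -0.38 ± 0.19 (SE), edgeR adjusted p = 0.415). Of the polyphosphate list PHM6, a gene of unknown function that phosphate represses, had 16.8 and 17.6 CPM with the active thione against 2.97 and 3.83 CPM with DMSO and rose by 2.35 ± 0.37 on the log2 scale (SE, edgeR adjusted p = 0.0178).

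Other phosphate genes had higher values that did not pass in the main fit. PHO84, the gene of the main high-affinity phosphate transporter, had 4088 and 3476 CPM with the active thione and 2017 and 2143 CPM with DMSO (log2 fold change 0.86 ± 0.20 (SE), edgeR adjusted p = 0.0908). An annotated non-coding RNA lies opposite PHO84 over 1764 bases, and the counting is not stated to use strand, so reads of both may be mixed. The subunit genes of the vacuolar polyphosphate polymerase, VTC1, VTC2, VTC3 and VTC4, had log2 fold changes of 1.11, 0.38, 0.67 and 0.51 with edgeR adjusted p-values of 0.0697, 0.287, 0.185 and 0.182. In these 4 genes and PHO84 both active thione libraries lay above both DMSO libraries, as in 29.8% of all features. For the regulators, the kinase inhibitor gene PHO81 had 241 and 204 CPM with the active thione against 187 and 161 CPM with DMSO (edgeR adjusted p = 0.344). PHO4 itself had 53.7 and 60.8 CPM with the active thione against 47 and 61.5 CPM with DMSO, with overlapping groups (edgeR adjusted p = 0.88). The low-affinity transporter gene PHO87 had a log2 fold change of -0.49 ± 0.13 (SE, edgeR adjusted p = 0.131), with both active thione libraries below both DMSO libraries. Among the 9 risers only PHO89, PHO5, GIT1 and SPL2 held without any 1 of the DMSO or active thione libraries. The other 5 calls ended without DMSO replicate 1 (edgeR adjusted p 0.0832 to 0.211), DMSO replicate 2 (0.146 to 0.252), active thione replicate 1 (0.0668 to 0.138) and its replicate 2 (0.0813 to 0.178), and PHO11 also without inactive thione replicate 1 (0.0686) or 2 (0.0669).

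**Figure D2:**
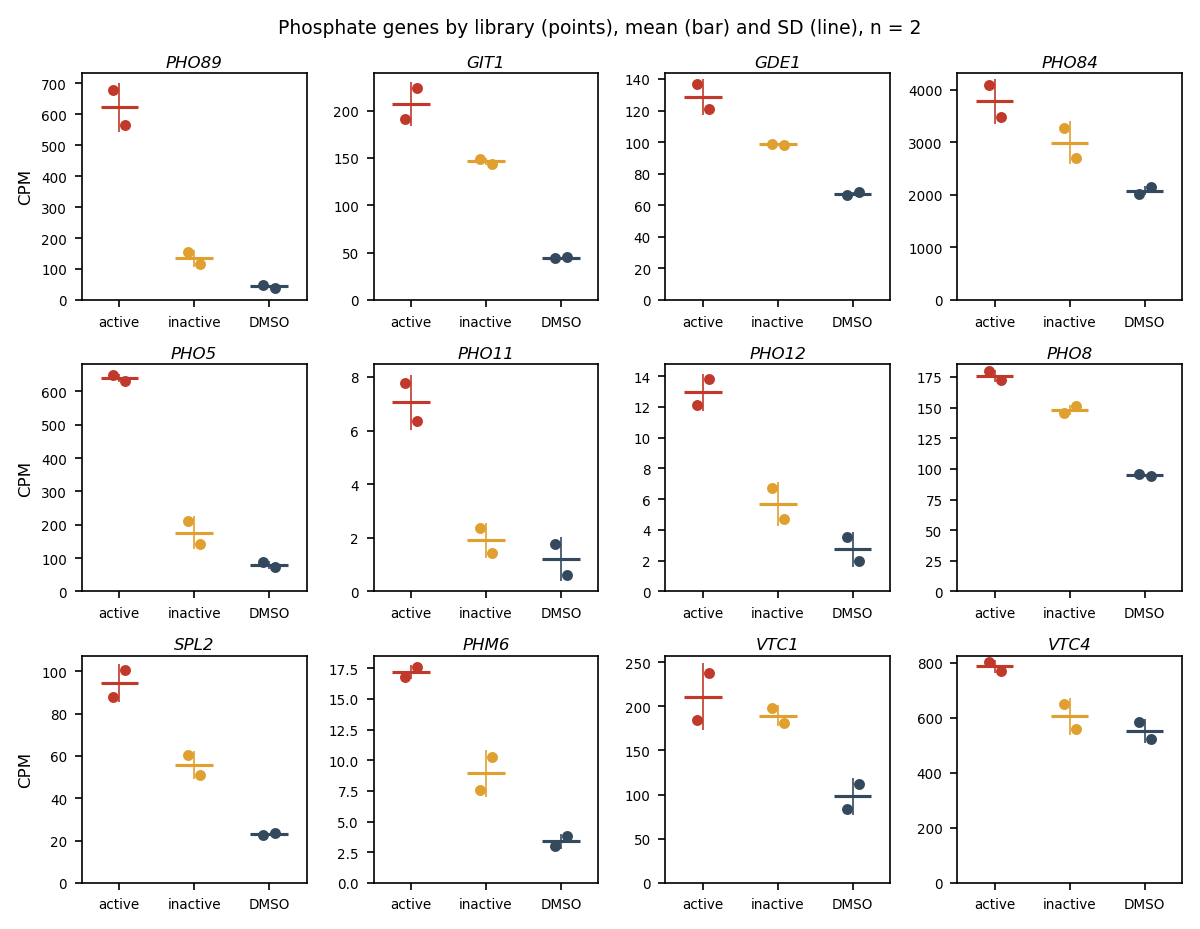
CPM of 12 phosphate genes in each library (points), with the mean (bar) and SD (line, n = 2), for the active thione, the inactive thione and DMSO; each panel has its own axis from 0. Both active thione libraries lie above both DMSO libraries in every panel. The inactive thione libraries lie between those of the other groups in every panel except PHO11, VTC1 and VTC4.

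The stretches upstream of the phosphate risers and of CTR1, the copper transporter gene described below, show which of them carry the hexamer CACGTG, the core that Pho4 binds, or TTTGCTC, a core of the Mac1 site. Each motif was searched on both strands within 500 bases before the start codon, in 6000 promoters of the R64 assembly (sacCer3), from which the sequences are taken. CACGTG was present upstream of 18 of the 34 phosphate genes and of 7 of the 9 that rose, against 6.23% of all promoters. It began 323 bases before the start codon of PHO89, 253 before PHO5, 279 before PHM6, 283 before PHO11 and PHO12, 485 before GDE1, and at 361, 147, 90 and 31 before SPL2. GIT1 and PHO8, which also rose, have no CACGTG in that window. It was found too before genes that did not pass, such as PHO84 (436 and 414 bases before the start), VTC4 (125 and 113) and PHO81 (344). Below are 300 bases for each of 6 genes, 5′ to 3′ on the gene's strand, with matches in capitals: PHO89 (chrII:798546-798845, minus strand, starting at its match), PHO5 (chrII:430952-431251, minus strand), SPL2 (chrVIII:375101-375400, minus strand, holding 3 of its 4 matches), CTR1 (chrXVI:785874-786173, plus strand, from its farther match, with the second match on the other strand as GAGCAAA), GIT1 (chrIII:298606-298905, minus strand) and PHO8 (chrIV:1420251-1420550, minus strand). The 4 with a match are those of smallest p among the phosphate, iron and copper genes, and GIT1 and PHO8 those of smallest p without.
PHO89: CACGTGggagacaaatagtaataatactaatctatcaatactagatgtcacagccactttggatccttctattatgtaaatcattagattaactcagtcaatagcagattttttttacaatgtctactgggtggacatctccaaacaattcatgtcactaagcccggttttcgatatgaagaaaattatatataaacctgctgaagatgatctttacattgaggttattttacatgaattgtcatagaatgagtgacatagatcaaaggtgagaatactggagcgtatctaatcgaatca
PHO5: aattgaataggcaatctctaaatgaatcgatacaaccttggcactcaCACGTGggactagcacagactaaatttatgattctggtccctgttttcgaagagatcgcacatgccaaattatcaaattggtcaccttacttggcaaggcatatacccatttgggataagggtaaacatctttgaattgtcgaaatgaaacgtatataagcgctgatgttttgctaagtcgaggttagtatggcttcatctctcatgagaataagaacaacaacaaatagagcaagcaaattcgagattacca
SPL2: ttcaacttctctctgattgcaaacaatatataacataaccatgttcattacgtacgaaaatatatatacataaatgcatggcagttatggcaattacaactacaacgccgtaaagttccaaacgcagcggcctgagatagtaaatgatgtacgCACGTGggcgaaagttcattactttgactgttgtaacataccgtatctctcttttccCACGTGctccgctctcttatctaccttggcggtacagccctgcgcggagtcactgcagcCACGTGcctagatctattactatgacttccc
CTR1: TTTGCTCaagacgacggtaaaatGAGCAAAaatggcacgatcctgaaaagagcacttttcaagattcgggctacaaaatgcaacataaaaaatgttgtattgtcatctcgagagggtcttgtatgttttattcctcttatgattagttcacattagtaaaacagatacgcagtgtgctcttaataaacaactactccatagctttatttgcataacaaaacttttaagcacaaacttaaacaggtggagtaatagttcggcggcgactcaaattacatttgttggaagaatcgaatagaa
GIT1: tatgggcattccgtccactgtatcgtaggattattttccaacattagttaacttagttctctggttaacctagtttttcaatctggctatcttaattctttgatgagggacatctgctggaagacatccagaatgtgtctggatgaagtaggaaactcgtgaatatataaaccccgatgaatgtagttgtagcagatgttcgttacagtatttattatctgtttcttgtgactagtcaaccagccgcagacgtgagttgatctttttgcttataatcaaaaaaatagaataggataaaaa
PHO8: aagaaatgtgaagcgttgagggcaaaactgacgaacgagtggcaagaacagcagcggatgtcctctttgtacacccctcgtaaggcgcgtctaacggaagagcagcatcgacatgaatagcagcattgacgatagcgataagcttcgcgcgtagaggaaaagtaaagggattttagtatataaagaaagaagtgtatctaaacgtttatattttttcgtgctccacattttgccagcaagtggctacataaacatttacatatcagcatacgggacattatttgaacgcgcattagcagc

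In the stretches shown PHO89 and PHO5 each have 1 match, and SPL2 has 3. A match is a string of letters and says nothing on binding in these cells. The lists here and below hold many genes known to be under the factor searched for, so a share above that of all promoters is built in.

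Genes of iron and copper uptake made up the next group. Of 33 members of the Aft1/Aft2 iron regulon 6 rose, 0 fell and 27 missed the threshold, the list median being 0.38 on the log2 scale, and of 14 tested members of the copper list 2 rose and 0 fell, with a median of 0.32. Over all features 1.11% rose and 0.263% fell. CTR1 encodes the high-affinity copper transporter of the plasma membrane. It had 70.9 and 81.2 CPM in the active thione libraries and 23.5 and 25.9 CPM in the DMSO libraries, 3.08-fold higher (log2 fold change 1.62 ± 0.16 (SE), edgeR adjusted p = 0.00195). FRE1, whose reductase prepares both copper and iron for uptake and which belongs to both lists, had 49.5 and 49.2 CPM with the active thione against 24.1 and 21.2 CPM with DMSO (log2 fold change 1.12 ± 0.15 (SE), edgeR adjusted p = 0.0091). In both genes the groups were clearly apart, and FRE1 was nearly equal in the active thione libraries. TIS11, also called CTH2, encodes a protein that destabilises transcripts of iron-using proteins. It had 9.80 and 14.8 CPM with the active thione and 1.84 and 2.42 CPM with DMSO, 5.89-fold higher (log2 fold change 2.56 ± 0.28 (SE), edgeR adjusted p = 0.0048). FIT2, for a cell-wall mannoprotein that retains siderophores, had 25.3 and 50.2 CPM with the active thione and 7.67 and 8.28 CPM with DMSO, 4.75-fold higher (log2 fold change 2.25 ± 0.31 (SE), edgeR adjusted p = 0.0126). The active thione libraries of FIT2 differed by nearly 2-fold from each other, yet both lay above both DMSO libraries.

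The siderophore transporter gene SIT1 had 85.2 and 123 CPM with the active thione and 33.5 and 34.6 CPM with DMSO and rose by 1.61 ± 0.26 on the log2 scale (SE, edgeR adjusted p = 0.0178). ENB1, for the enterobactin transporter, had 37.6 and 41.4 CPM with the active thione against 18.7 and 17.3 CPM with DMSO (log2 fold change 1.13 ± 0.14 (SE), edgeR adjusted p = 0.00725). TMT1, for a methyltransferase, had 169 and 144 CPM with the active thione against 77.8 and 81.8 CPM with DMSO (log2 fold change 0.97 ± 0.16 (SE), edgeR adjusted p = 0.0178). The reductive iron uptake complex and the other siderophore genes gave values that did not pass. FET3, for the multicopper oxidase of that complex, had 389.9 and 426 CPM with the active thione and 285 and 276 CPM with DMSO (log2 fold change 0.54 ± 0.15 (SE), edgeR adjusted p = 0.149). Its partner permease gene FTR1 had 269.6 and 309 CPM with the active thione against 273 and 276 CPM with DMSO, with overlapping groups (edgeR adjusted p = 0.853). FIT3 had 27.3 and 67.7 CPM with the active thione against 14.6 and 17.7 CPM with DMSO (log2 fold change 1.56 ± 0.39 (SE), edgeR adjusted p = 0.106), a wide spread between its active thione libraries, and FIT1, ARN1 and ARN2 had log2 fold changes of 0.50, 0.29 and 0.72 with edgeR adjusted p-values of 0.559, 0.399 and 0.168. Among copper genes, REE1 and IRC7, both known Mac1 targets, had log2 fold changes of 0.79 and 0.81 (edgeR adjusted p = 0.102 and 0.0592). CUP1-1 and CUP1-2, near-identical metallothionein copies whose reads the counting may drop, had 0 counts, so no level is given. In 22 of the 33 iron regulon genes and 8 of the 14 copper genes both active thione libraries lay above both DMSO libraries, against 29.8% of all features. None of 22 genes for iron-using proteins passed, with a median of 0.09.

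The Aft1 core TGCACCC, on either strand within 500 bases, was present before 23 of the 33 iron regulon genes and 4 of the 6 that rose (TIS11, FIT2, ENB1 and SIT1), against 2.33% of all promoters. As the list holds known targets of Aft1 and Aft2, a share above that of all promoters is built in. FIT2 has 4 matches, ENB1 and TIS11 2 each and SIT1 1. TTTGCTC was present before 4 of the 15 copper genes with a promoter searched, among them CTR1, with 2, and FRE1, with 3, against 8.62% of all promoters. The 7 iron and copper calls all ended without DMSO replicate 1 (edgeR adjusted p 0.0788 to 0.254), and all but those of CTR1 and TIS11 ended without DMSO replicate 2 (0.109 to 0.177) or active thione replicate 2 (0.0731 to 0.163). FRE1 and TMT1 were also lost without active thione replicate 1 (0.0518 to 0.128).

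**Figure D3:**
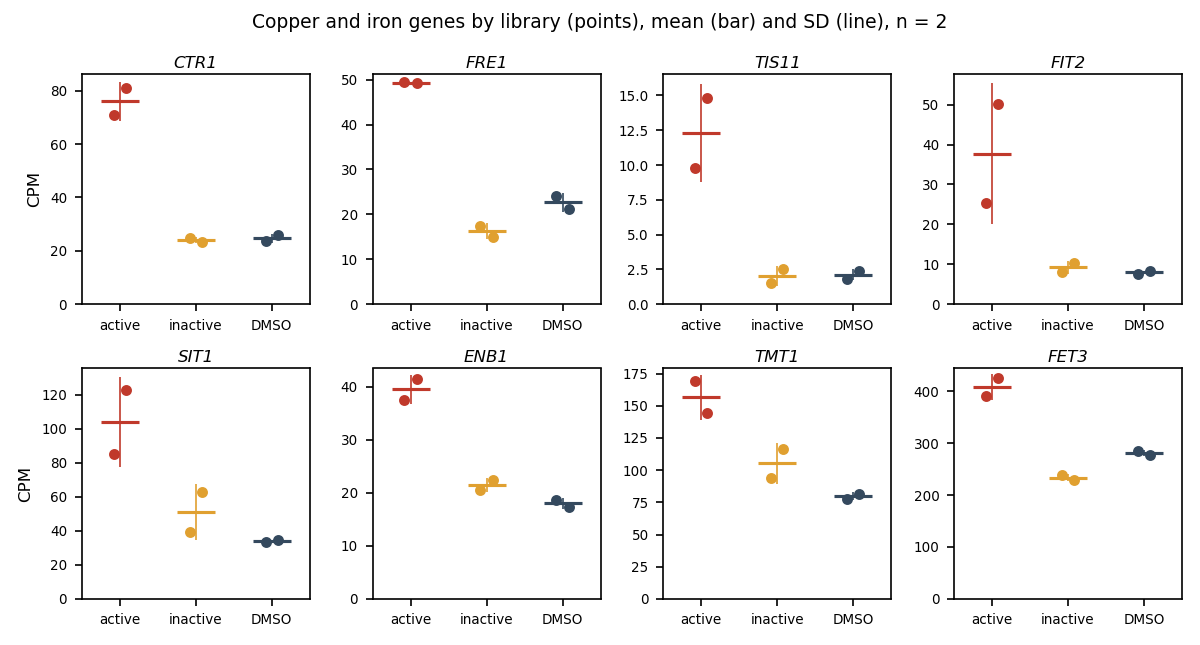
CPM of 8 copper and iron genes in each library (points), with the mean (bar) and SD (line, n = 2), for the active thione, the inactive thione and DMSO; each panel has its own axis from 0. CTR1, FRE1, TIS11 and FIT2 are high in the active thione libraries, while their inactive thione libraries lie near or below the DMSO libraries, and FET3 did not pass against DMSO.

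Of the zinc genes few passed. Of 23 tested members of the Zap1 regulon 1 rose and 1 fell, against 1.11% and 0.263% of all features, and the median log2 fold change was -0.06. ATG41, a gene of selective autophagy and zinc limitation, had 108 and 75.4 CPM with the active thione and 29.5 and 24.1 CPM with DMSO, 3.41-fold higher (log2 fold change 1.77 ± 0.29 (SE), edgeR adjusted p = 0.0194). IZH4, for a membrane protein of zinc homeostasis, had 50.3 and 41.3 CPM with the active thione and 136 and 118 CPM with DMSO and fell by 1.47 ± 0.23 on the log2 scale (SE, edgeR adjusted p = 0.0164). The groups did not overlap in either gene, as in all 78 called features. The zinc transporter genes ZRT1 and ZRT2 had log2 fold changes of 0.72 and -0.32 and did not pass (edgeR adjusted p = 0.0851 and 0.461), nor did ZAP1 itself (0.33, edgeR adjusted p = 0.431). Neither call held without DMSO replicate 1 (edgeR adjusted p = 0.136), DMSO replicate 2 (0.0785 to 0.196), active thione replicate 1 (0.0928 to 0.128) or active thione replicate 2 (0.0881 to 0.193).

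Several targets of Crz1 rose with the active thione, while most genes of the calcineurin pathway itself did not pass. All 14 listed Crz1 targets had a log2 fold change above 0, against 54.2% of all features. Of the 14, 4 rose, PHO89, CMK2, ENA1 and GYP7, against 1.11% of all features, with a list median of 0.67. PHO89 belongs to this list as well as to the phosphate list, so the lists are not independent. In 13 of the 14 both active thione libraries lay above both DMSO libraries, against 29.8% of all features. A second list, partly overlapping, holds calcineurin subunits and regulators, calcium channels and calcium pumps. Of its 16 members 1 rose, CMK2, and 0 fell, 9 had a log2 fold change above 0 and 7 below, and the median was 0.23. In 7 of these 16 both active thione libraries lay above both DMSO libraries, and in 3 below both, against 29.8% and 23.3% of all features. CMK2, for a calmodulin-dependent protein kinase, had 138 and 182 CPM with the active thione and 49.4 and 43.2 CPM with DMSO, 3.45-fold higher (log2 fold change 1.79 ± 0.22 (SE), edgeR adjusted p = 0.00699). ENA1, the first copy of the sodium-extruding ATPase genes, had 20.7 and 29.5 CPM with the active thione and 7.83 and 8.52 CPM with DMSO (log2 fold change 1.62 ± 0.32 (SE), edgeR adjusted p = 0.0457). It is nearly identical to its neighbours ENA2 and ENA5, so its own level is uncertain. GYP7, for an activator of Rab GTPases, had 121 and 129 CPM with the active thione against 60.8 and 74.7 CPM with DMSO (log2 fold change 0.89 ± 0.17 (SE), edgeR adjusted p = 0.0455). Among members that did not pass, the vacuolar calcium pump gene PMC1 had 184 and 219 CPM with the active thione against 131 and 148 CPM with DMSO (edgeR adjusted p = 0.26). The calcineurin regulator gene RCN2 had 37.4 and 37 CPM with the active thione against 23.9 and 21.4 CPM with DMSO (edgeR adjusted p = 0.27). The glucan synthase gene GSC2 had 886 and 758 CPM with the active thione against 519.6 and 542 CPM with DMSO (edgeR adjusted p = 0.105). The CRZ1 transcript had 61.2 and 52.9 CPM with the active thione and 62.8 and 56.5 CPM with DMSO, with overlapping groups (edgeR adjusted p = 0.882). NCW2, a cell-wall gene outside the list, had 279.9 and 299 CPM with the active thione against 137 and 119.9 CPM with DMSO and rose by 1.17 ± 0.17 on the log2 scale (SE, edgeR adjusted p = 0.014). The core GNGGCNCA of the Crz1 site, on either strand, was present before 4 of the 14 targets, of which GYP7 was the riser, against 7.67% of all promoters. It stood before 6 of the 63 features that rose (9.52%) and 1 of the 15 that fell. Besides PHO89, these calls ended without DMSO replicate 1 (edgeR adjusted p 0.0832 to 0.578), DMSO replicate 2 (0.0785 to 0.252) or active thione replicate 2 (0.0813 to 0.345), all but CMK2 without active thione replicate 1 (0.0635 to 0.128), and GYP7 and ENA1 without inactive thione replicate 1 (0.0551 to 0.0674) or 2 (0.0549 to 0.0669).

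In phospholipid and inositol metabolism 2 of 22 genes rose and 1 fell, against 1.11% and 0.263% of all features, and the median log2 fold change was 0.10. INO1 encodes inositol-3-phosphate synthase, the first enzyme of inositol synthesis. INO1 had 3560.2 and 3239 CPM with the active thione and 1157 and 1202 CPM with DMSO, 2.88-fold higher (log2 fold change 1.53 ± 0.17 (SE), edgeR adjusted p = 0.00492), and its groups lie far apart. Other genes under the same factors did not pass. The inositol transporter gene ITR1 had 4229 and 4129.8 CPM with the active thione against 3107 and 3404 CPM with DMSO, and OPI3, for a methyltransferase of phosphatidylcholine synthesis, 636 and 873 CPM with the active thione against 539 and 577 CPM with DMSO (edgeR adjusted p = 0.419 and 0.379). CHO1, CHO2 and INO2 had log2 fold changes of 0.30, 0.11 and 0.25 (edgeR adjusted p = 0.399, 0.767 and 0.466). The phospholipase B genes moved apart: PLB1 had 229 and 236 CPM with the active thione against 153 and 141 CPM with DMSO and rose by 0.66 ± 0.13 on the log2 scale (SE, edgeR adjusted p = 0.0469). PLB2 had 118 and 112 CPM with the active thione against 186 and 202 CPM with DMSO and fell by 0.76 ± 0.15 (SE, edgeR adjusted p = 0.0469). The motif CATGTGAA bound by Ino2 and Ino4, on either strand, stood 243 and 180 bases before the start codon of INO1 and before 10 of the 22 listed genes, against 1.45% of all promoters. It was present before 1 of the 63 features that rose (1.59%) and 1 of the 15 that fell. All 3 calls ended without DMSO replicate 1 (edgeR adjusted p 0.103 to 0.418) or 2 (0.0785 to 0.391), and those of PLB1 and PLB2 also without active thione replicate 1 (0.128 to 0.138) or 2 (0.276 to 0.322) and inactive thione replicate 1 (0.0843) or 2 (0.0793 to 0.0957). PLB1 was lost as well with relative log expression size factors (0.0631) and without the filter (0.0684).

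Genes of histidine and arginine synthesis rose in part. Of 18 members 4 rose and 0 fell, against 1.11% and 0.263% of all features, and the median log2 fold change was 0.61. In 15 of them both active thione libraries lay above both DMSO libraries, against 29.8% of all features. HIS4, for an enzyme with several steps of histidine synthesis, had 741 and 556 CPM with the active thione and 233 and 209 CPM with DMSO (log2 fold change 1.55 ± 0.26 (SE), edgeR adjusted p = 0.0249). ARG1, for argininosuccinate synthetase, had 1863 and 1414 CPM with the active thione against 711 and 630.4 CPM with DMSO (log2 fold change 1.29 ± 0.20 (SE), edgeR adjusted p = 0.0161). Of the genes for later steps of histidine synthesis, HIS3 had 46.6 and 35.6 CPM with the active thione against 21.8 and 21 CPM with DMSO and HIS5 156 and 133 CPM with the active thione against 84.1 and 74.7 CPM with DMSO (edgeR adjusted p = 0.0469 for each). In all 4 the first active thione library was the higher of the pair, and both were above both DMSO libraries. HIS1, ARG4 and ARG5,6 had log2 fold changes of 0.69, 0.87 and 0.84 and did not pass (edgeR adjusted p = 0.0659, 0.0665 and 0.0957). GCN4, whose protein is regulated mainly at translation, had 1895 and 2268 CPM with the active thione and 1958 and 1959.7 CPM with DMSO, with overlapping groups (edgeR adjusted p = 0.853). PCL5, for the cyclin that promotes Gcn4 turnover, had 463 and 433 CPM with the active thione against 269 and 245 CPM with DMSO and rose by 0.80 ± 0.15 on the log2 scale (SE, edgeR adjusted p = 0.0345). The remaining amino acid genes under Gcn4 gave 0 calls among 34, with a median of 0.22. The Gcn4 core TGACTC, on either strand, was present before 16 of the 18 histidine and arginine genes, before 20 of the 63 features that rose (31.7%) and before 0 of the 15 that fell, against 12.7% of all promoters. The calls of the 4 risers and PCL5 ended without DMSO replicate 1 (edgeR adjusted p 0.141 to 0.418) or 2 (0.197 to 0.345) as well as active thione replicate 1 (0.0974 to 0.173) or 2 (0.0636 to 0.157). HIS3, HIS5 and PCL5 also ended without inactive thione replicate 1 (0.0544 to 0.0843) or 2 (0.0627 to 0.0957), and HIS3 and HIS5 with relative log expression size factors (0.0577 each).

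Among genes for the breakdown of aromatic amino acids, only ARO9 and ARO10 were called, both lower, while 6 had a log2 fold change above 0 and 5 below. Of 11 listed genes 2 fell and 0 rose, against 0.263% and 1.11% of all features, and the median log2 fold change was 0.06. ARO10, for a decarboxylase of that pathway, had 61.7 and 79.2 CPM with the active thione and 149.5 and 179 CPM with DMSO (log2 fold change -1.22 ± 0.20 (SE), edgeR adjusted p = 0.0178), 2.33-fold lower. ARO9, for the aromatic aminotransferase that aromatic amino acids induce, had 25.2 and 34.2 CPM with the active thione and 61.4 and 85.8 CPM with DMSO (log2 fold change -1.30 ± 0.25 (SE), edgeR adjusted p = 0.0399), 2.47-fold lower. In both genes the second library of each group was the higher, and the groups did not overlap, as in all 78 called features. The constitutive aminotransferase gene ARO8 had a log2 fold change of 0.10 (edgeR adjusted p = 0.826). Both calls ended without DMSO replicate 1 (edgeR adjusted p = 0.103) or 2 (0.177 to 0.267) as well as active thione replicate 1 (0.128 to 0.17) or 2 (0.0881 to 0.152), and that of ARO9 without inactive thione replicate 1 (0.0609) or 2 (0.0516).

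At the cell wall and surface, rises and falls occurred side by side. Of 6 tested hypoxic mannoprotein genes 2 rose, with a median of 0.61, and of 26 cell-wall and integrity pathway genes 2 rose and 1 fell, with a median of 0.17. The shares over all features were 1.11% higher and 0.263% lower. DAN1, a mannoprotein gene normally expressed without oxygen, had 7.12 and 12.3 CPM with the active thione and 0.972 and 1.25 CPM with DMSO (log2 fold change 3.15 ± 0.43 (SE), edgeR adjusted p = 0.0114). TIR1, a mannoprotein gene of cold and low oxygen, had 28.8 and 38.6 CPM with the active thione and 8.05 and 10.9 CPM with DMSO, 3.59-fold higher (log2 fold change 1.84 ± 0.27 (SE), edgeR adjusted p = 0.014). Both genes are weakly expressed, with few counts behind the DMSO values of DAN1. PIR3, for an O-mannosylated wall protein, had 109.7 and 120.4 CPM with the active thione against 42.6 and 40.9 CPM with DMSO (log2 fold change 1.46 ± 0.19 (SE), edgeR adjusted p = 0.00856). YPS3, for a surface aspartic protease, had 173 and 159.5 CPM with the active thione against 92.9 and 74.8 CPM with DMSO (log2 fold change 0.98 ± 0.19 (SE), edgeR adjusted p = 0.0419). WSC4, for a member of the Wsc family of stress sensors, had 30.2 and 28.7 CPM with the active thione and 66.9 and 73.1 CPM with DMSO, 2.38-fold lower (log2 fold change -1.25 ± 0.20 (SE), edgeR adjusted p = 0.0194). NCA3, a SUN family gene, had 56.7 and 45.5 CPM with the active thione against 106 and 112 CPM with DMSO (log2 fold change -1.10 ± 0.16 (SE), edgeR adjusted p = 0.0156). YGP1, for a secreted wall glycoprotein induced when nutrients run out, had 119.7 and 124 CPM with the active thione against 233 and 188 CPM with DMSO (log2 fold change -0.79 ± 0.14 (SE), edgeR adjusted p = 0.0345). SAG1, for the alpha-cell agglutinin, had 71.8 and 46.3 CPM with the active thione and 139.6 and 138 CPM with DMSO, 2.35-fold lower (log2 fold change -1.23 ± 0.19 (SE), edgeR adjusted p = 0.0168). SAG1 was the only call among the 4 genes specific to alpha cells, whose median was -0.71, with 0 of 12 pheromone response genes called. These 8 calls ended without DMSO replicate 1 (edgeR adjusted p 0.103 to 0.465) or 2 (0.0785 to 0.321) and active thione replicate 2 (0.0881 to 0.22). WSC4, YGP1 and YPS3 also ended without active thione replicate 1 (0.128 to 0.143), and YGP1 and YPS3 without inactive thione replicate 1 (0.071 to 0.0834) or 2 (0.0627 to 0.0887).

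Among other transporters, OPT1 showed the largest fall of the called features. It encodes a carrier of glutathione and oligopeptides, and had 3.18 and 3.79 CPM with the active thione and 17.5 and 15.7 CPM with DMSO, 4.74-fold lower (log2 fold change -2.24 ± 0.28 (SE), edgeR adjusted p = 0.00725). The remaining 11 tested genes of glutathione and peptide import and breakdown did not pass. THI7, the thiamine transporter gene, had 145 and 141 CPM with the active thione and 266 and 292 CPM with DMSO (log2 fold change -0.96 ± 0.18 (SE), edgeR adjusted p = 0.0345), and was the single call among 16 thiamine genes. PMA2, for a minor form of the plasma-membrane proton pump, had 14.7 and 13.5 CPM with the active thione against 28.8 and 27.5 CPM with DMSO (log2 fold change -1 ± 0.20 (SE), edgeR adjusted p = 0.0479). HXT2, a glucose transporter gene, had 17.7 and 24.4 CPM with the active thione and 6.70 and 6.41 CPM with DMSO, 3.21-fold higher (log2 fold change 1.68 ± 0.23 (SE), edgeR adjusted p = 0.0106), and was the single call among 11 tested hexose transport genes. TPO4, for a polyamine exporter, had 62.3 and 76.6 CPM with the active thione against 23.9 and 25.5 CPM with DMSO (log2 fold change 1.49 ± 0.19 (SE), edgeR adjusted p = 0.00856), the single call among 24 tested drug transporter genes, whose median was 0.05. Calls made up 1.37% of all features, so a single call says little about its list. The major drug pump genes PDR5 and SNQ2, which Pdr1 and Pdr3 normally drive, did not pass. PDR5 had 162 and 177 CPM with the active thione against 132 and 137 CPM with DMSO (edgeR adjusted p = 0.338). SNQ2 had 244 and 221 CPM with the active thione against 255 and 280.4 CPM with DMSO (edgeR adjusted p = 0.551). KHA1, for a potassium-proton antiporter, had 130.4 and 111 CPM with the active thione against 76.8 and 65.1 CPM with DMSO (edgeR adjusted p = 0.0469) and lost its call with relative log expression size factors (0.0631) and without the filter (0.0563). All 6 calls of this group ended without DMSO replicate 1 (edgeR adjusted p 0.0832 to 0.405) or active thione replicate 2 (0.0881 to 0.362), all but OPT1 without DMSO replicate 2 (0.0829 to 0.384), and all but TPO4 and HXT2 without active thione replicate 1 (0.0668 to 0.166). THI7, KHA1 and PMA2 also ended without inactive thione replicate 1 (0.0674 to 0.0837) or 2 (0.0531 to 0.0957).

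In other metabolism, GTO3, for an omega-class glutathione transferase, had 4.69 and 6.69 CPM with the active thione and 0.918 and 1.72 CPM with DMSO, 4.47-fold higher (log2 fold change 2.16 ± 0.34 (SE), edgeR adjusted p = 0.0168). It was the single call among 15 glutathione transferase and glutaredoxin genes, where 1.37% of all features were called. RTS3, for a putative component of type 2A protein phosphatase, had 64.5 and 81.8 CPM with the active thione against 15.4 and 22.6 CPM with DMSO, 3.87-fold higher (log2 fold change 1.95 ± 0.29 (SE), edgeR adjusted p = 0.0156). ADH5, an alcohol dehydrogenase gene, had 63.8 and 57.9 CPM with the active thione against 20.1 and 22 CPM with DMSO (log2 fold change 1.53 ± 0.18 (SE), edgeR adjusted p = 0.00492). Mitochondrial genes were among the smaller rises: MRF1 and MEF1, for factors of mitochondrial translation, MAS2, for a subunit of the protease that matures imported proteins, and PKP2, for a kinase of pyruvate dehydrogenase, rose by 0.80, 0.80, 0.69 and 0.87 on the log2 scale (edgeR adjusted p = 0.0345, 0.0345, 0.0455 and 0.0437). The vacuolar protease gene PRB1 had 456 and 557 CPM with the active thione against 234 and 261 CPM with DMSO (log2 fold change 1.03 ± 0.18 (SE), edgeR adjusted p = 0.0313). DAL80, for a repressor of nitrogen catabolite genes, had 20.4 and 23.5 CPM with the active thione against 10.4 and 11 CPM with DMSO (log2 fold change 1.04 ± 0.20 (SE), edgeR adjusted p = 0.0412). MDH2, the cytosolic malate dehydrogenase gene, had 147 and 179.8 CPM with the active thione and 272 and 316 CPM with DMSO (log2 fold change -0.85 ± 0.15 (SE), edgeR adjusted p = 0.0345). URA1, for dihydroorotate dehydrogenase of pyrimidine synthesis, had 652 and 587 CPM with the active thione and 1133 and 999 CPM with DMSO (log2 fold change -0.78 ± 0.15 (SE), edgeR adjusted p = 0.0462). FMP48, a mitochondrial protein gene, had 29.8 and 27.3 CPM with the active thione against 91.9 and 74.9 CPM with DMSO, 2.92-fold lower (log2 fold change -1.55 ± 0.17 (SE), edgeR adjusted p = 0.0048). YHP1, for a homeobox repressor of the cell cycle, had 28.4 and 26.1 CPM with the active thione against 45.5 and 52.1 CPM with DMSO (log2 fold change -0.84 ± 0.15 (SE), edgeR adjusted p = 0.0345). The active thione and DMSO libraries did not overlap in any of these genes, as in all 78 called features. Of all features 29.8% lay above and 23.3% below in this way.

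YAT2, for a carnitine acetyltransferase, and BNA2, for the first enzyme from tryptophan to NAD, rose by 0.71 and 0.76 on the log2 scale (edgeR adjusted p = 0.0358 and 0.0479), and BNA2 shares 17 bases with a feature on its own strand. The other 17 called features all rose, by 0.68 to 2.39 on the log2 scale. Among them were TDA1, for a protein kinase, with 111 and 102 CPM with the active thione against 50.9 and 56.2 CPM with DMSO (edgeR adjusted p = 0.0178). XPT1, for xanthine phosphoribosyltransferase, had 307 and 327 CPM with the active thione against 176 and 197 CPM with DMSO (edgeR adjusted p = 0.027). YPL088W had 53.7 and 60.1 CPM with the active thione against 27.1 and 27.3 CPM with DMSO (edgeR adjusted p = 0.014). DIA1, also among them, overlaps a feature on the opposite strand over 174 bases, so its reads may include that feature's. Of the 15 named metabolic genes none kept its call without DMSO replicate 1 (edgeR adjusted p 0.0832 to 0.619) or active thione replicate 2 (0.0524 to 0.322). Only FMP48 kept it without DMSO replicate 2 (0.0577 to 0.317 for the others), and FMP48, ADH5 and GTO3 without active thione replicate 1 (0.0538 to 0.17 for the others). Without inactive thione replicate 1 the calls of FMP48, ADH5, RTS3, GTO3 and MEF1 stood (0.0501 to 0.0848 for the others), and without replicate 2 those of FMP48, ADH5, RTS3 and GTO3 (0.0516 to 0.0958 for the others). PKP2, MAS2 and BNA2 did not pass with relative log expression size factors (0.0518 to 0.0577), nor MAS2 and BNA2 without the filter (0.0549 to 0.0578). The 17 remaining features were lost without either DMSO library (edgeR adjusted p 0.103 to 0.542 and 0.148 to 0.337) or active thione replicate 2 (0.0731 to 0.333), and 16 of them without active thione replicate 1 (0.0518 to 0.128). Without inactive thione replicate 1 or 2, 10 of the 17 were lost (0.0519 to 0.0843 and 0.0531 to 0.0897), and DIA1 without CQ replicate 1 (0.0509).

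Several broad lists gave no call. As 1.37% of all features were called, 0 calls is near that share in lists of this size. None of 58 ribosome biogenesis genes passed, while 57 had a log2 fold change below 0, with a median of -0.35, and in 51 both active thione libraries lay below both DMSO libraries, against 23.3% of all features. None of 33 proteasome genes passed, with a median of 0.28 and both active thione libraries above both DMSO libraries in 22. None of 17 unfolded protein response genes passed, with a median of 0.32 and 14 such genes, where 29.8% of all features lay above in this way. KAR2, the chaperone gene that marks that response, had 1177 and 1248 CPM with the active thione and 750.2 and 770.3 CPM with DMSO (log2 fold change 0.67 ± 0.15 (SE), edgeR adjusted p = 0.0853). None of 36 respiratory chain and ATP synthase genes passed, with a median of -0.09, and none of 24 oxidative stress genes, with a median of 0.20. Of 23 cytosolic heat-shock chaperone genes none passed (median 0.14), and of 20 environmental stress genes 1 fell, YGP1 (median 0.07). Lists of other states of the culture gave 0 calls among 7 sporulation genes, with a median of -0.03, and among 5 stationary phase genes, with a median of 0.38. Genes of galactose use, the carbon source of the medium, also gave 0 calls among 9, with a median of 0.24. Sulfate and methionine genes gave 0 calls among 27 (median 0.01), ergosterol genes 0 among 27 (median -0.06) and purine genes 0 among 19 (median 0.33).

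**Figure D4:**
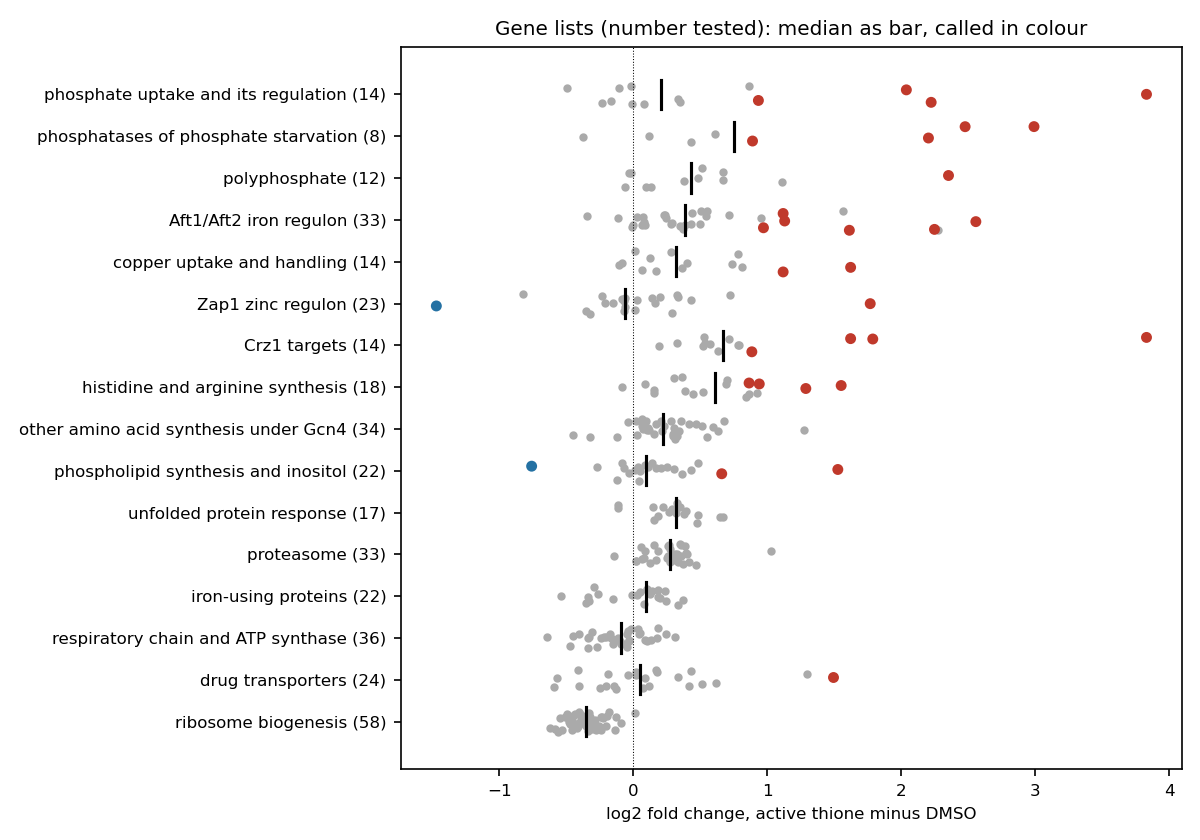
Log2 fold change, active thione minus DMSO, of each tested member (point) of 16 gene lists, with the number tested in parentheses and the list median as a black bar. Red members rose and blue members fell at adjusted p below 0.05; PHO89, a member of 2 lists, and PHO5 lie farthest to the right, and ribosome biogenesis lies almost wholly left of 0 with no coloured point.

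The active thione was compared directly with the inactive thione in the same fit, dose and time being equal. Between the thiones 7 of 5696 features differed (0.123%), 5 higher (0.0878%) and 2 lower (0.0351%) with the active thione. PHO89 had 678 and 566 CPM with the active thione and 154 and 115 CPM with the inactive thione, a log2 difference of 2.21 ± 0.19 (SE, edgeR adjusted p = 0.00176). PHO5 had 649 and 632 CPM with the active thione and 212 and 142 CPM with the inactive thione (log2 difference 1.86 ± 0.20 (SE), edgeR adjusted p = 0.00499). In both genes the inactive thione libraries lay between the active thione and DMSO libraries. In CTR1, FRE1 and TIS11 they did not. CTR1 had 24.8 and 23.2 CPM with the inactive thione, close to its 23.5 and 25.9 CPM with DMSO, and differed between active and inactive thione by 1.66 ± 0.16 on the log2 scale (SE, edgeR adjusted p = 0.00201). FRE1 had 49.5 and 49.2 CPM with the active and 17.5 and 15 CPM with the inactive thione (log2 difference 1.60 ± 0.15 (SE), edgeR adjusted p = 0.00201), with the inactive thione libraries below both DMSO libraries. TIS11 had 9.80 and 14.8 CPM with the active and 1.5 and 2.53 CPM with the inactive thione (log2 difference 2.61 ± 0.29 (SE), edgeR adjusted p = 0.00499). Between active and inactive thione FIT2 and ENB1 had log2 differences of 2.04 ± 0.31 and 0.88 ± 0.14 (SE) that did not pass (edgeR adjusted p = 0.0587 and 0.0699). FET3, which did not pass against DMSO, had 239 and 228 CPM with the inactive thione, below the 389.9 and 426 CPM with the active thione (edgeR adjusted p = 0.18).

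The 2 features that were lower with the active than with the inactive thione were transporter genes. AZR1, for a plasma-membrane carrier of the major facilitator family linked to azole resistance, had 0.838 and 1.79 CPM with the active thione and 428 and 552 CPM with the inactive thione (log2 difference -8.50 ± 0.32 (SE), edgeR adjusted p = 1.64e-06). That level rested on 10 and 26 counts with the active thione, against 0.486 and 0.625 CPM from 9 and 8 counts with DMSO, and did not pass (edgeR adjusted p = 0.268). YOR1, for an ABC transporter of the plasma membrane that Pdr1 and Pdr3 normally drive, had 168 and 150.5 CPM with the active thione, 333 and 409 CPM with the inactive thione and 142 and 151 CPM with DMSO. It differed between active and inactive thione by -1.22 ± 0.15 on the log2 scale (SE, edgeR adjusted p = 0.0113), while active thione and DMSO libraries overlapped (edgeR adjusted p = 0.741). PHO89 and AZR1 kept their calls in all 13 alternatives. PHO5 lost its call without active thione replicate 1 (edgeR adjusted p = 0.058), active thione replicate 2 (0.0557) or inactive thione replicate 2 (0.052), CTR1 and FRE1 without inactive thione replicate 2 (0.052), and TIS11 without active thione replicate 2 (0.0557) or inactive thione replicate 1 (0.1), and when the compared groups were fitted alone (0.0616). YOR1 lost its call without active thione replicate 1 (edgeR adjusted p = 0.102), active thione replicate 2 (0.255) or inactive thione replicate 2 (0.141), and when the compared groups were fitted alone (0.0648).

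Of the 78 features that changed against DMSO, 5 differed between the thiones and 73 did not pass. Missing the threshold does not show that the thiones act alike, and the intervals of the difference were wide for many. For the 58 risers among the 73, the log2 difference between active and inactive thione ran from -0.19 to 2.04 with a median of 0.43, and for 33 the unadjusted 95% interval lay wholly on a single side of 0. For the 15 fallers it ran from -1.14 to 0.06 with a median of -0.60, and 12 intervals lay on a single side of 0. All 73 were picked through the same active thione libraries, so a lean in the direction picked is built in and tests nothing. GIT1 had 191 and 224 CPM with the active and 149 and 144 CPM with the inactive thione, with a 95% interval of the log2 difference of 0.17 to 0.84. SPL2 had 88 and 101 CPM with the active and 60.3 and 50.9 CPM with the inactive thione, with an interval of 0.37 to 1.16. For CMK2 the libraries had 138 and 182 CPM with the active and 103 and 132 CPM with the inactive thione (interval -0.02 to 0.91), and INO1 had 3560.2 and 3239 CPM with the active and 2469 and 2222 CPM with the inactive thione (interval 0.15 to 0.92). Of the 78, besides PHO89, GIT1 and SPL2, the inactive thione against DMSO also changed PIR3, CRG1, ADH5 and FMP48. Its log2 fold changes were 1.52, 1.25, 1.20 and -1.11 (edgeR adjusted p = 0.0177, 0.0347, 0.0421 and 0.0499). The difference between the thiones was close to 0 for some. PIR3 had 109.7 and 120.4 CPM with the active and 105 and 135 CPM with the inactive thione (interval -0.47 to 0.36). Close too were URA1, with 652 and 587 CPM with the active and 606 and 579.7 CPM with the inactive thione (interval -0.28 to 0.41), and DAL80 20.4 and 23.5 CPM with the active and 21.4 and 22.6 CPM with the inactive thione (interval -0.44 to 0.43). Among fallers, OPT1 had 3.18 and 3.79 CPM with the active and 6.23 and 7.66 CPM with the inactive thione (interval -1.62 to -0.35), and WSC4 30.2 and 28.7 CPM with the active and 56.6 and 73.1 CPM with the inactive thione (interval -1.60 to -0.68). By list, the median log2 difference between active and inactive thione was 0.50 over the Aft1/Aft2 regulon, 0.38 over histidine and arginine synthesis, 0.19 over Crz1 targets and -0.01 over ribosome biogenesis. Over the phosphate lists it was 0.15 for uptake, 0.46 for phosphatases and 0.21 for polyphosphate. The labels name the thiones only by compound code and activity, so no structural difference is given.

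**Figure D5:**
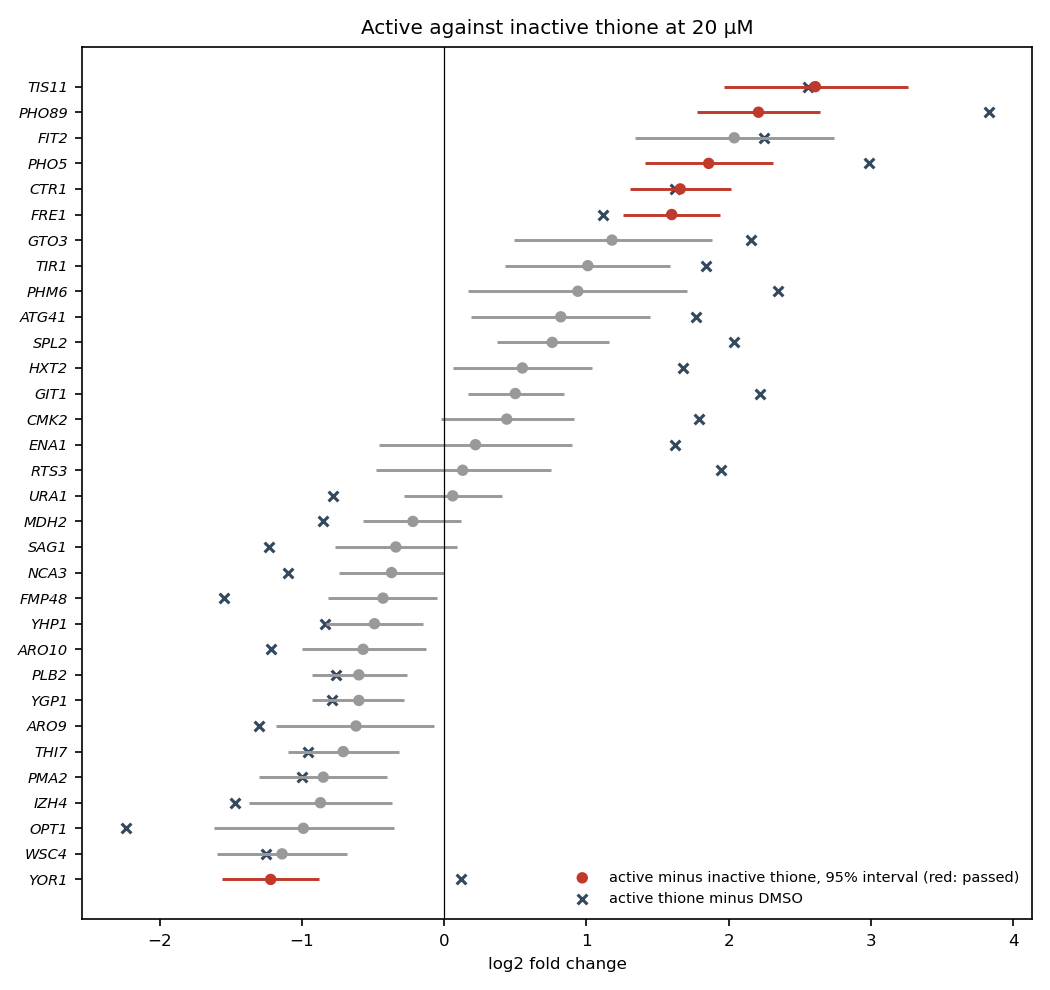
Log2 difference, active minus inactive thione, at 20 µM for the genes described in full and for FRE1 and YOR1 (circles) with its 95% interval (line, red where adjusted p was below 0.05), beside the log2 fold change of active thione minus DMSO (crosses). PHO89, PHO5, TIS11, CTR1 and FRE1 lie to the right in red and YOR1 to the left; AZR1, at -8.50, is not drawn.

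CQ was given at 0.8 µM, another dose and another compound, so its values are set beside those of the active thione without a comparison, and both refer to the same DMSO libraries. Against DMSO, PHO89 had a log2 fold change of 3.83 with the active thione and 1.34 with CQ, PHO5 of 2.99 with the active thione and -1.5 with CQ, and GIT1 of 2.22 with the active thione and -1.45 with CQ. For the metal genes these values were 1.62 with the active thione and 0.61 with CQ for CTR1, 1.12 with the active thione and 3.77 with CQ for FRE1, 2.56 with the active thione and 7.01 with CQ for TIS11, and 2.25 with the active thione and 8.01 with CQ for FIT2.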

How the data were processed

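RNA was counted in 8 yeast libraries, of which 4 (active thione and DMSO) make the comparison and the other 4 help to estimate the spread. The authors deposited a table of raw counts per annotated feature, whole numbers with no scaling, and beside them a normalized signal, the authors' counts over a size factor for each library, which no result uses. Per the labels' protocols, total RNA was taken with hot acid phenol, made into libraries with the PrepX kit and sequenced on an Illumina instrument. The submitters' processing notes name HTSeq, DESeq, TopHat, TopHat2 2.1.1 and the sacCer3 build. Which annotation, counting mode and strand setting were used is not given in the sources used here.

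The table lists 7122 features, 725 without a count, and 4 emptied lines were not analysed. RefSeq names from assembly R64, the same genome as sacCer3, matched 6045 features, and the other 1077 keep their identifiers. Gene coordinates and upstream sequences are from that assembly and annotation, counted from start or stop codons.

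Counts were tested in R 4.3.3 by edgeR 4.0.16, quasi-likelihood (two-sided, TMM scaling, filterByExpr, 1 term per group, all 8 libraries in 1 fit, common biological coefficient of variation 0.1526), with Benjamini-Hochberg adjustment over 5696 features and a threshold of 0.05. SE is the size of the log2 fold change over the root of its F statistic. CPM are counts relative to TMM-scaled library totals. Alternatives were DESeq2 1.42.0, relative log expression size factors, no filter, the compared groups alone, the replicate number as a block, and each library left out in turn. When an arm is left with 1 library, that library is assumed to vary like the other groups. In simulated data, where 100 features had a 2-fold and 100 a 4-fold change, the test recovered 78% and 95% for active thione against DMSO and called 0.183% of unchanged features, and recovered 73% and 98% for active against inactive thione and called 0.0913%. The simulated libraries were drawn independently with the spread that the fit itself estimated. These rates therefore hold only as far as that model describes the real libraries, whose same-numbered differences were correlated in part.

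The 43 gene lists (736 distinct genes matched, 1 entry unmatched), the comparison and the motifs were chosen with earlier results of these data known. A list is described by its counts and median only. Any called feature or list member may be named. Given in full are the 15 largest rises and 15 largest falls among called features whose average log2 CPM reached 3 and whose libraries did not overlap. That average takes in all 8 libraries, and CQ raised it for TIS11 (263 and 281 CPM with CQ) and GTO3 (67.7 and 56 CPM with CQ).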

Additional observations from a re-analysis of the deposited data

How the results depend on the processing

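For active thione against DMSO, 78 features were called. DESeq2 called 185, the replicate block 174 and the compared groups alone 133, each including all 78, while relative log expression size factors called 70 (69 of the 78) and no filter 75 (73 of the 78). Some list members followed by name that did not pass in the main fit passed elsewhere. These were 16 with DESeq2, 11 with the replicate block and 5 with the compared groups alone. A gene said above not to pass missed the threshold in the main fit only. With 1 library left out the count ran from 4 to 108, and the direction of every one of the 78 held. For active against inactive thione 7 were called, 27 with DESeq2, 13 with the replicate block, 7 with relative log expression size factors, 8 with no filter, 5 with the compared groups alone and 3 to 10 with 1 library left out, the fewest without inactive thione replicate 2 (3) and active thione replicate 2 (4). The cause of these moves was not tested.

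The labels do not say what a shared replicate number stands for. The within-group differences of same-numbered libraries correlated at 0.39 for active thione and DMSO, 0.33 for active and inactive thione and 0.43 for inactive thione and DMSO. For the pairs with CQ they correlated at 0.21 with the active thione, -0.09 with the inactive thione and -0.15 with DMSO. The fit holds all 8 libraries and not every pair was above 0.1, so the fit without the replicate block was kept. The correlations among the active thione, inactive thione and DMSO groups alone would pass that mark, and CQ is in neither contrast. With the replicate block more features were called in both contrasts. A feature that did not pass here may therefore pass once the shared replicate number is taken into account. Log2 fold changes near 0 crossed it with 1 library left out for PHO4 (-0.11 to 0.29), FTR1 (-0.03 to 0.17), CRZ1 (-0.17 to 0.03) and GCN4 (-0.05 to 0.21). With 2 libraries a group, small changes and weakly expressed genes such as PHO11, DAN1 and GTO3 are the least certain. At an unadjusted p below 0.05 there were 786 features for active thione against DMSO and 211 for active against inactive thione.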
